A study of Mus musculus with 6 samples.

Results

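The baseline transcriptome of AML12 cells was described from the 3 libraries whose cell line label is sh-NC, of 6 libraries in the series. AML12 is a mouse hepatocyte line, and all 6 libraries carry the labels liver and AML12. The other 3 libraries come from the line labelled sh-1 in a study of TM9SF1, an endosomal and Golgi membrane protein, in liver ischemia-reperfusion injury, and they are not used here. The name sh-NC reads as a control hairpin, but the titles of these libraries give only the name of the cell line, so it is uncertain whether the cells carried a hairpin. The labels name no treatment, and nothing in them says that the 3 replicates came from separate cultures, so the spread between them may be technical.

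Hepatocytes are the secretory and metabolic cells of the liver, and in the animal they make most plasma proteins, run the urea cycle, store glycogen, make bile acids and clear drugs. Their identity rests on a set of transcription factors, among them HNF4A, FOXA2 and CEBPA, that bind together at liver genes. AML12 cells were derived from hepatocytes of mice that carry a human TGF-alpha transgene, a ligand of the EGF receptor, and they divide in culture. Cultured hepatocytes are known to lose much of the liver's enzyme and plasma protein expression, and cholangiocytes, the epithelial cells of the bile ducts, share a progenitor with hepatocytes.

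Total counts were 41073857, 39462554 and 51334798 in replicates 1, 2 and 3. Levels are given in FPKM, fragments scaled to transcript length and to the depth of the library, so that genes can be set side by side. Mitochondrially encoded genes took 2.29 to 2.88% of the counts, and the 10 genes with the most counts took 8.96 to 9.91%. The gene targeted in the series, Tm9sf1, had 19.7, 21.4 and 17.7 FPKM. Replicate 1 stood apart from the other libraries. The median absolute difference in log2(FPKM + 1) was 0.09 between replicates 2 and 3, against 0.16 between replicates 1 and 2 and 0.17 between replicates 1 and 3. Values of leading genes are therefore given for each library and others as mean ± SD or mean, and levels without each library in turn were also computed.

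Of 21914 protein-coding genes, 9523 (43.5%) had a mean of at least 1 FPKM, the level used below to call a gene present. The median protein-coding gene stood at 0.267 FPKM, and the median of those at 1 FPKM or more was 11.98 FPKM. Of all 22036 annotated genes, 6781 had no count in any library, 4507 lay between 10 and 100 FPKM, 642 between 100 and 1000 FPKM and 95 at 1000 FPKM or above. In every library at once, 9239 annotated genes reached 1 FPKM. The level was concentrated in few genes: the 10 most abundant genes and loci held 11.9 ± 0.468% of the summed FPKM, the 100 most abundant 43.5 ± 1.72% and the 1000 most abundant 74.9 ± 1.53% (SD, n = 3).

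Genes of protein synthesis, iron storage, the cytoskeleton and glycolysis filled the top of the transcriptome. The most abundant annotated gene was Eef1a1, which encodes the elongation factor that brings aminoacyl-tRNA to the ribosome, with 12778, 11498 and 11340 FPKM. Ftl1, the ferritin light chain, had 6917, 8373 and 8689 FPKM. Fth1, the ferritin heavy chain that oxidises iron for storage, had 5167, 5290 and 4862 FPKM. Both ferritin chains together held 2.28 ± 0.0721% of the summed FPKM, and the libraries ranked differently for the 2 chains. Lgals1, which encodes galectin-1, had 3768, 5469 and 5496 FPKM, and the calcium-binding protein gene S100a6 had 2533, 3525 and 3573 FPKM. For both, replicate 1 was clearly below the other libraries.

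Cytosolic ribosomal protein genes took 23.2 ± 1.76% of the summed FPKM (SD, n = 3), with 21.2% in replicate 1 against 24.5 and 23.8% in replicates 2 and 3. All 77 were at 1 FPKM or above, against 43.5% of protein-coding genes, and 52 of them were at 1000 FPKM or above. The family was drawn up by symbol with results known. It leaves out related genes whose symbol ends in an added l, so the full count partly reflects that choice. Their median was 1352 FPKM. The large-subunit stalk protein Rplp0 led them with 6939 ± 763 FPKM, and 18 of the 30 most abundant annotated nuclear genes were ribosomal. The 13 mitochondrially encoded genes took 5.07 ± 0.663%, led by the cytochrome oxidase subunits mt-Co3 at 5495 ± 860 FPKM and mt-Co1 at 5493 ± 825 FPKM. The 85 nuclear genes of the respiratory chain and ATP synthase took 2.37 ± 0.140%. Of these 77 were present, against 43.5% of protein-coding genes.

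**Figure D1:**
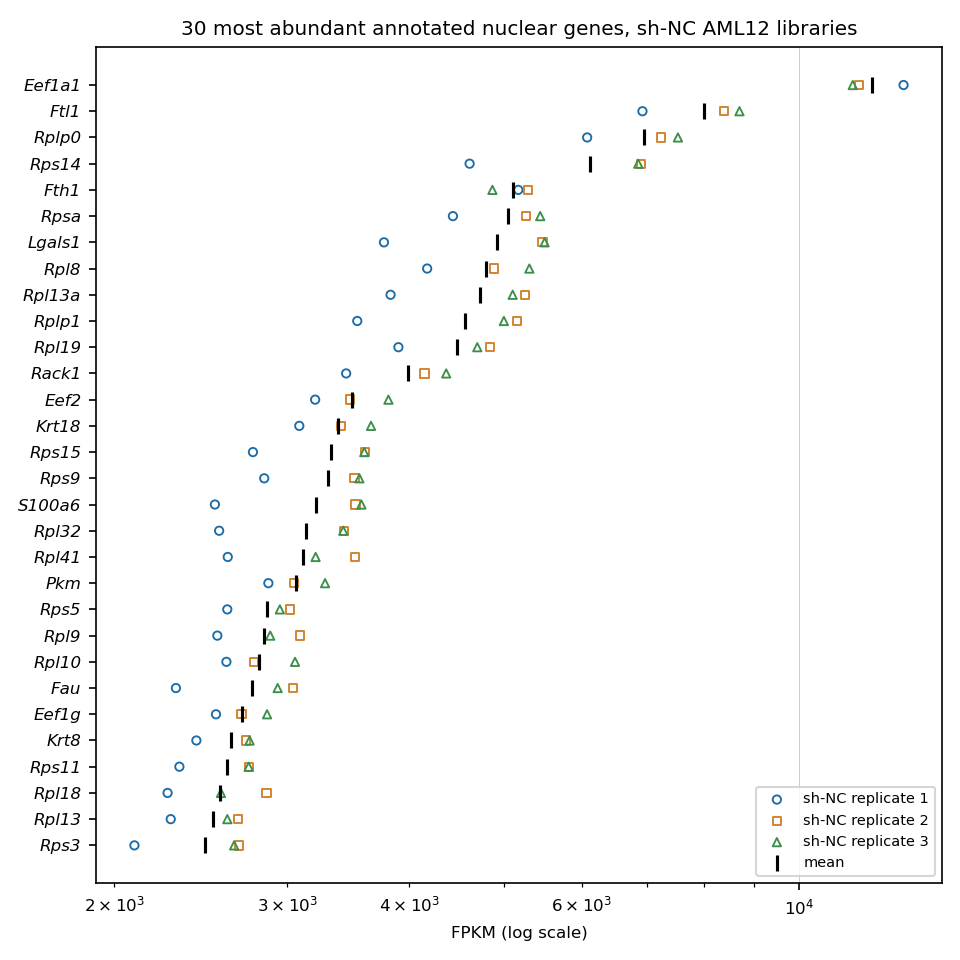
FPKM on a log axis of the 30 annotated nuclear genes with the highest mean, with a symbol for each sh-NC library and a bar for the mean. In 28 of the 30 genes replicate 1 is the lowest library, and the means run from 2475 to 11872 FPKM.

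Some genes near the top have near-identical copies, and how their reads were assigned is not given in the sources used. A locus added by the authors' assembly, whose annotation in the deposited table is 40S ribosomal protein S2, had 6822, 8627 and 9335 FPKM, whereas the annotated gene Rps2 had 28.8, 32.9 and 31.3 FPKM. Alpha-enolase is the annotation of Eno1 at 867 ± 47.7 FPKM and of an added locus at 546 ± 72.7 FPKM (SD, n = 3), and Eno1b was at 382 ± 40.2 FPKM. Gapdh, a glycolytic enzyme with many processed pseudogenes, had 93.5, 107 and 112 FPKM, well below the triosephosphate isomerase Tpi1 at 1041 ± 105 FPKM. The levels of these genes are uncertain, and the part of read assignment in them was not tested. Added loci as a whole held 2.42% of the summed FPKM, and 455 of 4323 reached 1 FPKM.

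The hepatocyte label was checked against 3 lists of liver genes, for transcription factors, secreted proteins and metabolic enzymes with transporters. A minority of each list was present, with the smallest share among the enzymes and transporters. Hnf4a and Foxa2 were among the transcription factors present, and 7 of the 25 factors lay under 0.1 FPKM. Of 25 hepatocyte transcription factors, 12 reached 1 FPKM (48%, against 43.5% of protein-coding genes), with a list median of 0.715 FPKM. Of 45 secreted protein genes, 16 did (35.6%, median 0.358 FPKM), and of 50 metabolic and transport genes 11 did (22%, median 0.0604 FPKM). No chance test was made on these shares, and 1 FPKM is a convention.

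Hnf4a, the nuclear receptor at the centre of the hepatocyte network, had 39.2, 37.2 and 34.5 FPKM. Foxa2, a pioneer factor of endoderm, had 35.6, 35.7 and 35.3 FPKM. Hhex, a homeobox factor of liver bud formation, had 20.4, 21.4 and 20.3 FPKM. Foxa2 was the most even of these 3 genes, at 35.53 ± 0.1999 FPKM (SD, n = 3). For Hnf4a the SD over the mean was 6.35%, near the median of 7.29% for annotated genes between 10 and 100 FPKM. Cebpb, a C/EBP factor of the acute-phase response, averaged 35.6 ± 2.05 FPKM and the endoderm GATA factor Gata4 12.1 ± 0.821 FPKM. Cebpa, the C/EBP factor linked to mature liver function, had only 1.96, 1.99 and 2.59 FPKM, below its relative Cebpb in every library. The bile acid receptor gene Nr1h4 (FXR) averaged 3.85 ± 0.133 FPKM. Ppara, the fatty acid oxidation receptor, was at 0.0718 ± 0.0220 FPKM, and Onecut1, an early liver factor, was at 0.0566 ± 0.0314 FPKM. Foxa1, Hnf4g and Nr0b2 (SHP) had no count in any library. For Foxa1, 3 counts over the group would amount to 0.00684 RPKM, a level computed from counts and exon length.

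Among secreted proteins, Rbp4, the plasma carrier of retinol, stood first with 355, 388 and 424 FPKM. Trf, the iron carrier transferrin, had 82.2, 87.4 and 83.8 FPKM, and Hpx, the heme scavenger hemopexin, had 44.2, 53.9 and 60.6 FPKM. The complement genes C3 (32.3 ± 0.516 FPKM) and Cfb (21.6 FPKM on average) and the vitamin D carrier Gc (17.5 ± 1.71 FPKM) were also present. Alb, which encodes serum albumin, had 1.74, 2.11 and 2.26 FPKM, from 150, 176 and 243 counts. The thyroxine carrier Ttr had 1.634, 1.687 and 1.598 FPKM. Both of these classic liver transcripts were thus present just above the threshold, and Rbp4, whose protein travels with transthyretin in blood, was far above them. Apoa1, the main HDL apolipoprotein, was less even, with 1.604, 1.794 and 0.615 FPKM from 70, 75 and 34 counts. Apob, the backbone of VLDL, was at 0.529 ± 0.102 FPKM, and the fibrinogen chains Fga, Fgb and Fgg lay between 0.0995 and 0.150 FPKM. Apoc3 and F7 had no count. Together the 45 genes held 0.120 ± 0.00296% of the summed FPKM, and Rbp4 made up more of that sum than all the others. The alpha-1-antitrypsin genes Serpina1a, Serpina1b and Serpina1c are near-identical copies, and their means of 4.37, 4.86 and 3.56 FPKM are uncertain.

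**Figure D2:**
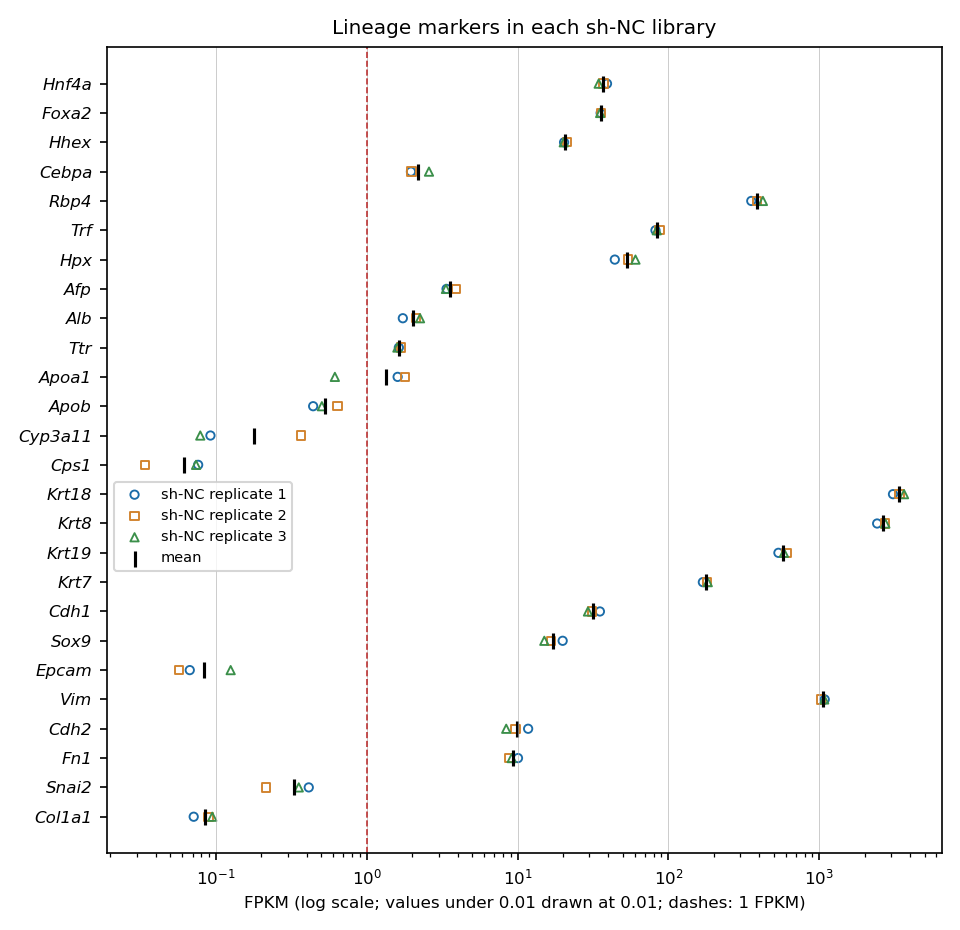
FPKM on a log axis of 26 lineage markers in each sh-NC library, with a bar for the mean and dashes at 1 FPKM. From the top, liver transcription factors reach 37.0 FPKM (Hnf4a), plasma proteins run from 389 FPKM (Rbp4) to 0.529 FPKM (Apob), keratins reach 3382 FPKM (Krt18), and Vim lies at 1066 FPKM with Col1a1 at 0.0851 FPKM.

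Few genes of mature liver metabolism were present. Among the most abundant were Aldh2, the mitochondrial aldehyde dehydrogenase, at 53.9 ± 3.73 FPKM, the urea cycle enzyme Asl with 31.9, 31.4 and 35.7 FPKM, and the fatty acid oxidation enzyme Cpt1a at 24.3 ± 2.87 FPKM. These are enzymes that many tissues express. Fah, the last enzyme of tyrosine breakdown, had 19.2, 22.6 and 23.1 FPKM. Cps1, the entry enzyme of the urea cycle, had 0.0763, 0.0338 and 0.0739 FPKM, from 48 counts in all. Cyp3a11, a main drug-metabolising cytochrome P450, had 0.0920, 0.367 and 0.0788 FPKM from 56 counts in all, with replicate 2 the highest. Cyp7a1, the rate-limiting enzyme of bile acid synthesis, had no count, which allows up to 0.00545 RPKM (3 counts over the group). The bile salt export pump Abcb11, the organic anion transporter Slco1b2 and the tryptophan enzyme Tdo2 had none either. Ugt1a1 was also listed at 0, but it shares its last exons with the other Ugt1a genes, so its reads may be counted elsewhere; Ugt1a6a of that cluster had 0.995, 9.12 and 0.572 FPKM.

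In 10 pairs of a form that hepatocytes use and another gene of the same or a related function, the other gene had the higher mean in 9. The pairs were chosen with earlier results known and hold enzymes, glucose transporters, binding proteins and connexins. Pkm, the pyruvate kinase of most dividing cells, had 2872, 3050 and 3281 FPKM, while the liver form Pklr had 24.2, 21.7 and 23.0 FPKM. The glucose transporter Slc2a1 exceeded the liver transporter Slc2a2 by 142 times (42.6 ± 1.01 and 0.300 ± 0.0298 FPKM). Mat2a exceeded the liver methionine adenosyltransferase Mat1a by 272 times (53.6 ± 8.14 and 0.197 ± 0.0685 FPKM). In glycogen metabolism, Gys1 averaged 18.8 ± 0.549 FPKM and Gys2 0.0105 FPKM from 4 counts, and Pygb averaged 20.9 ± 0.222 FPKM while Pygl, the liver phosphorylase, had no count. Cad, the cytosolic carbamoyl phosphate synthetase of pyrimidine synthesis, averaged 37.4 ± 2.39 FPKM beside 0.0613 ± 0.0239 FPKM for Cps1. Fabp5 averaged 58.2 ± 8.603 FPKM and the liver fatty acid binding protein Fabp1 0.760 ± 0.431 FPKM, and the connexins Gja1 and Gjb1 averaged 6.57 ± 1.44 and 1.05 ± 0.216 FPKM. Of the gluconeogenic fructose bisphosphatases, Fbp2 averaged 0.813 ± 0.411 FPKM and the liver form Fbp1 had 3 counts in all. The arginases Arg2 and Arg1 were both near 0, with 10 and 16 counts in all, and their order differed between libraries.

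**Figure D3:**
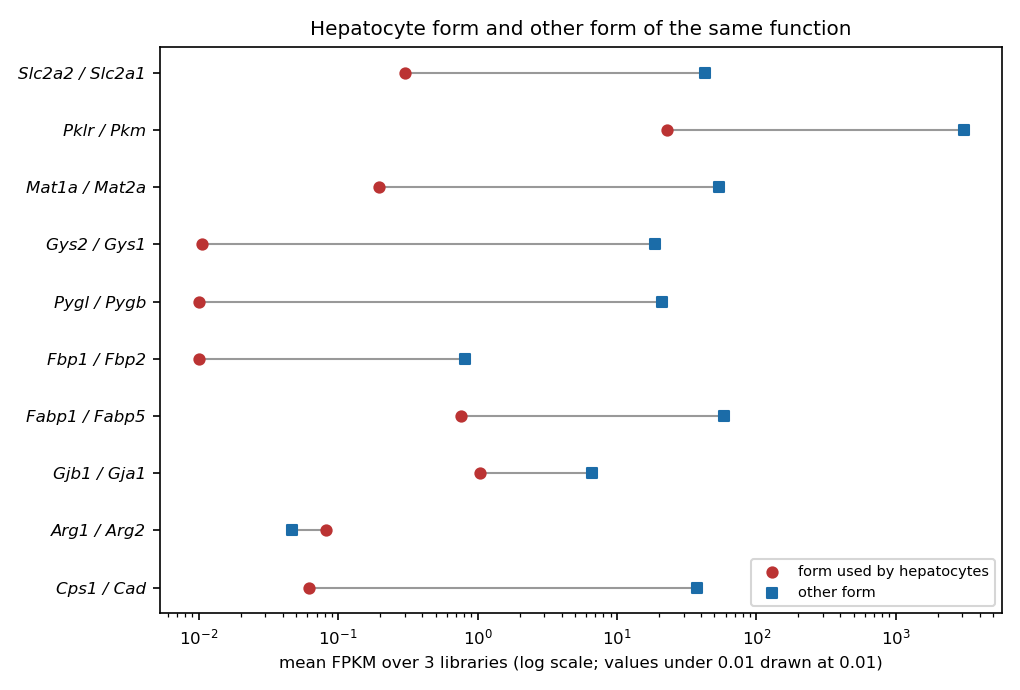
Mean FPKM over the 3 sh-NC libraries on a log axis, for 10 pairs of a hepatocyte form (circle) and another gene of the same or a related function (square). The square lies to the right in every pair except the arginases, and the highest square is Pkm at 3068 FPKM, beside Pklr at 23.0 FPKM.

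Alb and Afp, which lie next to each other on chromosome 5 and encode serum albumin and alpha-fetoprotein, were both low. Afp had 3.38, 3.92 and 3.35 FPKM, higher than Alb in 3 of 3 libraries, with a ratio of the means of 1.75. Their promoter windows run from 250 bases before to 50 bases after the RefSeq start (GRCm38.p6). They are shown because Alb is on the secreted protein list and Afp on the fetal and oncofetal list: chr5:90460620-90460919, plus strand, for Alb and chr5:90490464-90490763, plus strand, for Afp. Capitals mark TATAAA, the CCAAT box and GTTAAT, each on either strand, so that ATTGG is a CCAAT on the minus strand.
Alb: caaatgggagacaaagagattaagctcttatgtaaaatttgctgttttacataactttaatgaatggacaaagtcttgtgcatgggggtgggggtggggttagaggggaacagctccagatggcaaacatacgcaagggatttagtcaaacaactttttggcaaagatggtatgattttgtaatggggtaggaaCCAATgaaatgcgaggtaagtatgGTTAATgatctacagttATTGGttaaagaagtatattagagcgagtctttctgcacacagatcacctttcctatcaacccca
Afp: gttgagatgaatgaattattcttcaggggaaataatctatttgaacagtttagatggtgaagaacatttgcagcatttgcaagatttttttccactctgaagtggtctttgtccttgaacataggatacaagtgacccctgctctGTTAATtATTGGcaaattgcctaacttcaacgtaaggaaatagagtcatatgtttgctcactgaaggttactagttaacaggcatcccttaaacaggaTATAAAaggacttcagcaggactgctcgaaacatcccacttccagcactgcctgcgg
The Alb window holds CCAAT at 56 bases and, on the minus strand, at 15 bases before the start, with GTTAAT at 32 bases. The Afp window holds TATAAA at 7 bases, GTTAAT at 105 bases and a CCAAT on the minus strand at 98 bases. Of all 27025 RefSeq genes with such a window, 14.2% hold TATAAA, 37.9% CCAAT and 7.20% GTTAAT. Each window holds 3 CpG dinucleotides, and these matches describe the sequence only.

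Of the fetal and oncofetal list, 7 of 15 genes with a row were present (46.7%, close to the 43.5% of protein-coding genes), with a median of 0.0831 FPKM. The chromatin proteins Hmga1, at 385, 434 and 448 FPKM, and Hmga2, at 39.4, 31.8 and 34.1 FPKM, led it. Igf2bp1, an oncofetal RNA-binding protein, was nearly equal in the libraries with 12.94, 12.97 and 13.04 FPKM, and Igf2bp2 averaged 12.8 ± 1.44 FPKM. Igf2, Dlk1, Gpc3, Plagl1 and Sall4, which fetal liver or embryonic cells express, had no count. H19 was not analysed here.

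The cells carried epithelial genes and several genes that are known from bile ducts and liver progenitors. Krt18 had 3088, 3404 and 3655 FPKM and Krt8 had 2425, 2723 and 2748 FPKM. These are the paired keratins of simple epithelia and the keratins of normal hepatocytes. Krt19, a keratin that adult hepatocytes lack and cholangiocytes have, had 537, 608 and 584 FPKM. Krt7, another cholangiocyte keratin, averaged 178 ± 7.26 FPKM and Krt20 115 ± 7.74 FPKM. Of 49 keratin genes 7 were present, against 43.5% of protein-coding genes. Of the biliary and progenitor list, 13 of 24 were present (54.2%, against 43.5% of protein-coding genes), with a median of 4.00 FPKM. Besides the keratins these included the adhesion receptor Cd44 at 104 ± 7.76 FPKM, osteopontin (Spp1) at 97.4 ± 11.8 FPKM, and the transcription factor Sox9 at 17.2 ± 2.48 FPKM. Epcam, the adhesion molecule by which progenitors are often sorted, had 0.0671, 0.0569 and 0.125 FPKM, from 6, 5 and 14 counts. Prom1, Krt23 and Foxl1 were at or near 0.

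Of 40 epithelial genes 23 were present (57.5%, against 43.5% of protein-coding genes), with a median of 5.08 FPKM. E-cadherin (Cdh1) had 35.2, 31.0 and 29.3 FPKM, and desmosomal and tight junction genes such as Jup (42.1 FPKM), F11r (99.1 ± 8.92 FPKM) and the pore-forming claudin Cldn2 (25.6 ± 3.11 FPKM) were present. Other tight junction genes were not: Ocln, which encodes occludin, had 12 counts in all, and Cldn1 had none, which allows up to 0.00470 RPKM. Of the splicing factors of epithelia, Esrp2 had 9.41, 8.65 and 9.17 FPKM and Esrp1 had 0.0189 ± 0.0163 FPKM. Grhl2, an epithelial transcription factor, averaged 0.174 ± 0.0697 FPKM.

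Among mesenchymal genes, a few were abundant. Vim, the intermediate filament of mesenchymal and many cultured cells, had 1089, 1030 and 1080 FPKM, about 0.315 of the Krt18 level. Sparc, a matrix-associated glycoprotein gene, averaged 80.6 ± 7.13 FPKM and caveolin-1 (Cav1) 73.5 ± 11.3 FPKM. N-cadherin (Cdh2), which normal hepatocytes also express, had 11.8, 9.67 and 8.42 FPKM, below Cdh1 in every library, and fibronectin (Fn1) had 10.1, 8.84 and 9.15 FPKM. Snai2, a repressor of epithelial genes, had 0.413, 0.216 and 0.354 FPKM, Zeb1 averaged 2.15 ± 0.288 FPKM and Twist2 2.54 ± 0.228 FPKM. Col1a1 was at 0.0851 ± 0.0122 FPKM, and Twist1, Prrx1, Pdgfrb, Postn, Lum, Fap and Col5a2 had no count. In all, 12 of 33 were present (36.4%, against 43.5% of protein-coding genes) with a median of 0.145 FPKM, against 0.267 FPKM for protein-coding genes.

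Markers of other liver cell types were nearly all low. None of 7 erythroid genes, 1 of 15 endothelial genes, 2 of 13 stellate cell genes and 3 of 17 macrophage and leukocyte genes reached 1 FPKM. These shares were 0, 6.67, 15.4 and 17.6%, against 43.5% of protein-coding genes. The endothelial gene was Eng at 1.14 ± 0.220 FPKM, while Pecam1 was at 0.202 ± 0.124 FPKM and Lyve1 and Tie1 had no count. The stellate genes were Ecm1 at 14.2 ± 0.807 FPKM and Des at 2.28 ± 0.221 FPKM, while Lrat, Reln, Hand2 and Lhx2 had no count. Cd14, the lipopolysaccharide co-receptor, had 102, 98.8 and 99.6 FPKM, whereas the leukocyte antigen Ptprc had 10 counts in all and Adgre1 and Csf1r averaged 0.00967 and 0.0665 FPKM. The summed level of the macrophage and leukocyte list, 103 to 108 FPKM per library, was thus almost wholly Cd14. In bulk RNA a small share of other cells and a low level in every cell cannot be told apart.

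**Figure D4:**
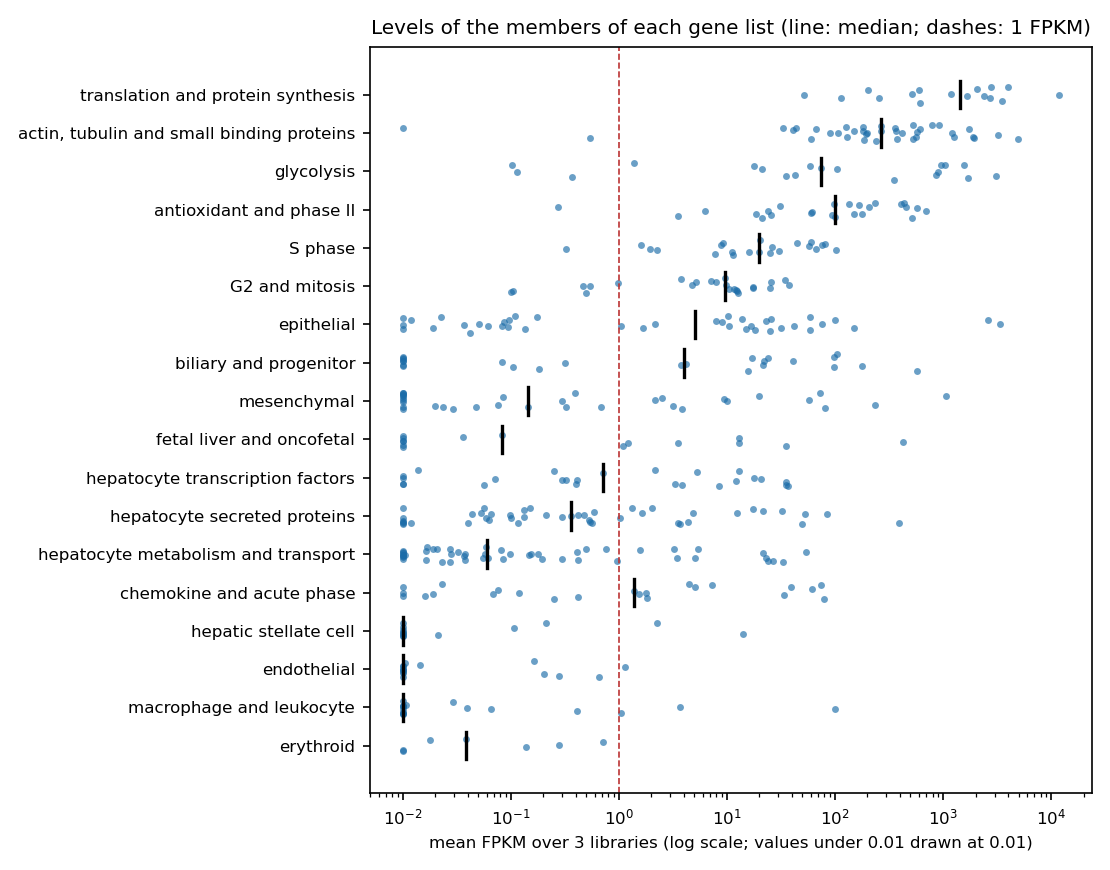
Mean FPKM over the 3 sh-NC libraries on a log axis for the members of 18 gene lists, with each point a gene, a black line at the list median and dashes at 1 FPKM. Medians run from 1428 FPKM for translation to 5.08 FPKM for epithelial, 0.0604 FPKM for hepatocyte metabolism and 0 for stellate cell genes.

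Genes of DNA replication and mitosis were present, as were several inhibitors of the cell cycle. Of 22 S phase genes 21 were present (95.5%, against 43.5% of protein-coding genes), with a median of 20.0 FPKM. They were led by the flap endonuclease Fen1 (101 ± 4.70 FPKM) and the helicase subunit Mcm7 (81.4 FPKM). Of 24 genes of G2 and mitosis 18 were present (75%), with a median of 9.68 FPKM. They were led by the ubiquitin-conjugating enzyme Ube2c (34.8, 37.0 and 41.5 FPKM) and the kinase Aurka (34.1, 34.4 and 35.8 FPKM). Mki67, the usual proliferation marker, had only 0.720, 0.390 and 0.281 FPKM, and Cenpe and Cenpf averaged 0.106 and 0.0998 FPKM. The 6 members below 1 FPKM had long, GC-poor transcripts, with a median length of 6364 bases and 42.6% GC, against 2796 bases and 47.8% GC for the 18 that were present. What transcript length and GC content contribute to these low values was not tested.

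Ccnd1 (cyclin D1) had 341, 304 and 295 FPKM, its kinase Cdk4 averaged 223 ± 7.92 FPKM and Myc 67.8 ± 5.25 FPKM. Cdkn1a, which encodes the kinase inhibitor p21, had 520, 534 and 563 FPKM, and Trp53, its activator, had 188, 183 and 209 FPKM. Cdkn2a, the locus of p16 and p19ARF, averaged 38.1 ± 3.52 FPKM. The other kinase inhibitors Cdkn2b and Cdkn1b averaged 12.2 and 10.7 FPKM, near the median of present genes. Of 18 cell cycle control genes 16 were present (88.9%, against 43.5% of protein-coding genes).

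Cell cycle genes are known for CCAAT boxes in their promoters. Of the 20 G2 and mitosis genes with a RefSeq window, 18 (90%) hold CCAAT on either strand, as do 13 of 18 S phase genes (72.2%), beside 37.9% of all windows. The windows of the 2 most abundant mitotic genes are shown for that reason, chr2:164769679-164769978, plus strand, for Ube2c and chr2:172370521-172370820, minus strand, for Aurka, with the same motifs in capitals.
Ube2c: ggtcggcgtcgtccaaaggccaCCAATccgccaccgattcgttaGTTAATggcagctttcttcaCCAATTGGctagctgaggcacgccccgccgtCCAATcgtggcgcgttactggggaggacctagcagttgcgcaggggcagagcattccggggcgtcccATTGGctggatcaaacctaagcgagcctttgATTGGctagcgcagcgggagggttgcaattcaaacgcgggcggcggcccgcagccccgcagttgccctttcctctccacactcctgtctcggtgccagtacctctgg
Aurka: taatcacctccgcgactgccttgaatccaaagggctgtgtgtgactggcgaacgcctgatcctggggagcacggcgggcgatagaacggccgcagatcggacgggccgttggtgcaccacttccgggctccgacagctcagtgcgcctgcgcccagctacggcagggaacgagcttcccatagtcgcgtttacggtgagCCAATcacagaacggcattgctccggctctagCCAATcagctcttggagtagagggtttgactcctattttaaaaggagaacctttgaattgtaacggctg
The Ube2c window holds 6 CCAAT matches, 2 of which overlap in the run CCAATTGG, and the Aurka window 2 matches, at 51 and 19 bases before the start. The windows hold 25 and 24 CpG dinucleotides, and the median window of all genes 7.

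Genes of the EGF receptor system were present on both sides of the receptor. Areg, the ligand amphiregulin, had 84.8, 77.2 and 74.97 FPKM, Hbegf averaged 32.8 ± 4.34 FPKM and the mouse gene Tgfa had 25.6, 21.5 and 18.8 FPKM. Whether reads of the human transgene were counted under Tgfa was not tested. The receptor gene Egfr had 23.2, 19.1 and 21.2 FPKM and Erbb2 averaged 16.9 FPKM, while Egf was at 0.0553 FPKM and Erbb4 had no count. The hepatocyte growth factor receptor Met averaged 9.51 ± 1.13 FPKM, and its ligand Hgf, which stellate cells make, had no count. Of 24 genes of this list 14 were present (58.3%, against 43.5% of protein-coding genes).

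Of 24 genes of TGF-beta signalling and YAP output, 21 were present (87.5%, against 43.5% of protein-coding genes), with a median of 20.1 FPKM. They included the receptor kinase Axl at 107 ± 4.54 FPKM and the YAP targets Ankrd1 at 97.1 ± 9.06 FPKM, Cyr61 at 30.6 ± 3.51 FPKM and Ctgf at 16.9 ± 0.632 FPKM. Tgfb1 had 21.6, 26.1 and 29.1 FPKM, and Tgfb2 was at 0.0841 FPKM. Of chemokine and acute-phase genes 12 of 23 were present (52.2%, against 43.5% of protein-coding genes), and 7 at a cutoff of 5 FPKM. They were led by the growth factor Csf1 with 75.6, 86.8 and 77.6 FPKM and the chemokines Ccl2, with 88.9, 68.6 and 65.1 FPKM, and Cxcl5 at 60.9 ± 2.85 FPKM. The inflammatory cytokine genes Il6 and Tnf were at 0.0769 and 0.0687 FPKM and Il1b had no count.

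Stress defence, folding and degradation genes were present almost throughout. Of 25 antioxidant and phase II genes 24 were present (96%, against 43.5% of protein-coding genes), with a median of 100 FPKM. The lipid peroxidase Gpx4 led them with 561, 751 and 779 FPKM. The exception was Nqo1, a quinone reductase, at 0.273 ± 0.0790 FPKM. All 15 lysosomal genes were present, led by the membrane protein Cd63 (947 ± 109 FPKM) and the protease cathepsin D (Ctsd, 845 ± 34.2 FPKM), and all 19 genes of folding and secretion were, led by the chaperone Hsp90ab1 (2363 ± 97.0 FPKM). The metal-binding metallothionein Mt1 had 416, 540 and 437 FPKM. Of 26 integrin, laminin and adhesion genes 21 were present (80.8%), led by the tetraspanin Cd9 at 311 ± 23.4 FPKM. Of 38 genes of actin, tubulin and small binding proteins 36 were present (94.7%) and 30 exceeded 100 FPKM.

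Of 1606 genes that the deposited table assigns to a transcription factor family, 675 (42.0%) were present, close to the 43.5% of protein-coding genes. Of the 1606, 246 reached 10 FPKM and 16 reached 100 FPKM. Those named next were chosen after their values were seen. Nme2 (1119 ± 123 FPKM), which is also a nucleoside diphosphate kinase, and Hmga1 led, followed by Ybx1 (381 ± 44.1 FPKM), which binds RNA as well. The stress factor Atf4 averaged 243 ± 4.33 FPKM and the AP-1 members Fosl1 and Junb 217 ± 11.1 and 141 ± 3.79 FPKM. Each of these exceeded Hnf4a by several times.

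Levels were related to the base composition and length of transcripts. In the lowest GC decile of protein-coding genes (18.1 to 39.8% GC), 14.5% were present, with a median of 4.08 FPKM among those present. In the decile of 53.3 to 55.5% GC, 53.2% were present, with a median of 18.4 FPKM. Across the 9505 present genes with a known sequence, Spearman's rho of level with GC content was 0.27 and with transcript length -0.37, as a description across genes, which are not independent replicates. Biological and library preparation sources of this relation cannot be told apart here.

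The 3 libraries were close for most genes. The median coefficient of variation (CV, the SD over the mean of FPKM) of the 9536 annotated genes at 1 FPKM or more was 9.68%, while counting error alone would give a median of 2.56%. The median CV was 14.1% between 1 and 10 FPKM, 7.29% between 10 and 100 FPKM, 6.00% between 100 and 1000 FPKM and 11.3% at 1000 FPKM or above, so the most abundant genes were less even than those a class below. Pearson's r of log2(FPKM + 1) across these genes was 0.991 for replicates 1 and 2, 0.990 for replicates 1 and 3 and 0.994 for replicates 2 and 3. In the same order of pairs, chi-square over its degrees of freedom was 37.4, 48.1 and 15.1, far above the 1 of pure counting error, so no library was a second deposit of another. The biological coefficient of variation from edgeR was 14.9% over 12347 genes. Among genes that differed more than 1.5-fold between the highest and the lowest library (1124), replicate 1 was the one apart in 617, higher in 504 of them and lower in 113. Without replicate 1 the median CV was 5.25%, against 9.66% without replicate 2 and 8.88% without replicate 3.

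The deviation of replicate 1 followed GC content and length. GC content and log2 transcript length were fitted together, so each slope is at equal values of the other. The log2 FPKM of replicate 1 fell by 0.11 per 10 percentage points of GC relative to the gene mean over the libraries. Replicate 2 had a slope of 0.07 and replicate 3 of 0.05. Each gene mean includes all 3 libraries, so the slopes cancel out and are not separate observations. In the lowest GC decile of present genes, replicate 1 lay 0.19 above the gene mean in the median and replicate 2 lay at -0.13. In the joint fit, long transcripts were higher in replicate 1, by 0.08 per doubling of length. The ribosomal protein genes, most of which have short transcripts, were lower in replicate 1, as were 28 of the 30 most abundant annotated nuclear genes, while mt-Co1 and mt-Co3 were lowest in replicate 2. What part the trend has in those differences was not tested.

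**Figure D5:**
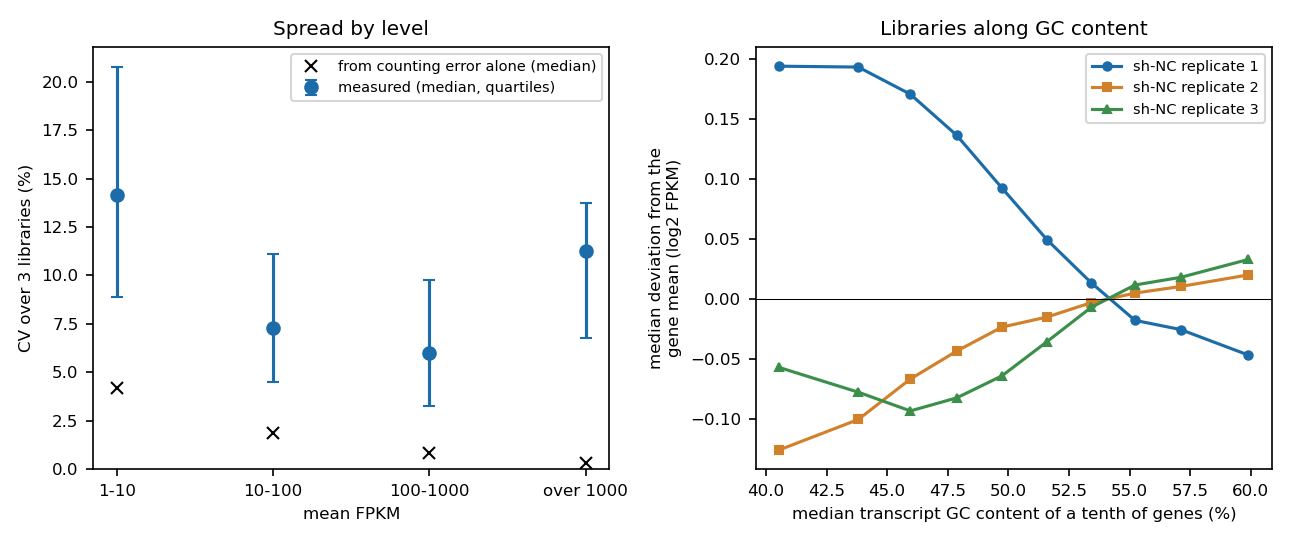
Left, CV over the 3 sh-NC libraries by level class, with the median and quartiles of the genes as points and bars and the median expected from counting error as crosses; the measured median is 14.1% at 1 to 10 FPKM and 11.3% over 1000 FPKM. Right, the median deviation of each library from the gene mean in deciles of present protein-coding genes by GC content, where replicate 1 starts at 0.19 in the lowest decile and crosses below 0 at high GC content.

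Only 352 genes at 1 FPKM or more (3.69%) had a CV above 30%, and 208 (2.18%) differed more than 2-fold between libraries. The most variable of the genes at 10 FPKM or more was Gm49416, a gene model with 0.755, 43.8 and 0.525 FPKM, followed by Gm45717 with 0.599, 1.89 and 59.9 FPKM. Raver1, which encodes a splicing cofactor, had 35.4, 4.86 and 3.89 FPKM, while the gene model Gm38431, which overlaps it on the same strand of chromosome 9, had 12.8, 53.4 and 53.6 FPKM. In that pair the library that was high for Raver1 was low for the overlapping model. Fdx1l, which also overlaps Gm38431, had 27.2, 13.7 and 11.8 FPKM. Of the 15 most variable protein-coding genes, 8 (53.3%) overlap another gene of the table on the same strand. Among the 5238 protein-coding genes at that level 303 (5.78%) do. Raver1, Gm38431 and Fdx1l are among the 8 and lie at the same locus, so they are not separate cases. The levels of the 8 are uncertain, since reads can be divided between overlapping models. So are those of the near-identical histone genes Hist2h2aa1 and Hist2h2aa2 on the same list.

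The 10 most even genes at 100 FPKM or more included Tuba4a, Atp6v1b2, Eif3b, Psmd7, Aars, Atp5a1, Pttg1ip, Uqcrfs1 and Actb, which encode a tubulin, a proton pump subunit, a translation initiation factor, a proteasome subunit, a tRNA synthetase, an ATP synthase subunit, a membrane protein, a respiratory complex III subunit and beta-actin. All 10 had a CV below 0.6%, and Tuba4a, with 138.8, 138.5 and 138.1 FPKM, had 0.269%. Actb, often used to normalise PCR, had 1211, 1224 and 1213 FPKM. Being the lowest of many genes in 3 libraries, these CVs describe these libraries and need not hold in others.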

How the data were processed

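RNA was measured in 3 AML12 libraries labelled sh-NC, made from oligo(dT)-enriched, fragmented mRNA, per the labels' protocols. The submitters' processing notes name HISAT2, StringTie and GRCm38, with no versions. How the authors assigned reads to genes is not given in the sources used here. The deposited table gives, per the file headers, raw counts of the authors for each gene in each library and the authors' FPKM, which scales for transcript length and for depth. The authors' own comparison columns in that table were not used. Of 26369 rows 26359 had an identifier: 22036 Ensembl genes, of which 22022 were found in GENCODE M21 (GRCm38), and 4323 loci added by the assembly. For 27 genes the symbol had become a date and was looked up again by identifier.

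Mean and SD of FPKM were taken over the 3 libraries, with no test, since there is 1 group. No label gives a batch or date. A gene was called present at a mean of at least 1 FPKM; lists were described by counts and medians. Counts of 0 allow up to 3 counts over the group. The members, the 26 lists and the pairs were chosen with earlier results of these data known. Genes were named by a rule: the 30 most abundant annotated nuclear genes, up to 6 leading members of each list with the defining liver, biliary, epithelial and mesenchymal markers, the genes of 18 pairs, the 15 most variable genes at 10 FPKM or more and the 10 most even at 100 FPKM or more. Other genes named for their low level or absence, and Tm9sf1, Rps2, Eno1b and Ugt1a6a, were added after their values were seen. GC content and length come from the longest protein-coding transcript. The biological coefficient of variation was estimated with an intercept-only model in edgeR 4.0.16 (R 4.3.3; filterByExpr, TMM), tested on simulated data; other steps used Python 3.11.15 with pandas 2.3.3, numpy 2.4.6 and scipy 1.17.1. Promoter windows are RefSeq's (GRCm38.p6); 75.4% of protein-coding genes had one, so motif shares are given only for lists with at least 80%. Some genes that the rule names are not reported here. Floors cover counting error only and are RPKM from counts and exon length. The deposited FPKM of present genes was 1.40 times RPKM in the median, so floors on the FPKM scale may be higher.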

Additional observations from a re-analysis of the deposited data

How the results depend on the processing

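The count of present annotated genes (9536) ranged between 6811 at 5 FPKM and 10312 at 0.5 FPKM, and was 10173 after rescaling FPKM to a common sum per library (the TPM scale) and 8987 with RPKM computed from counts and exon length. Restricting to protein-coding genes, chosen after seeing the data, gave 9523. Leaving out a library gave 9475 to 9580 present genes, a share in the 100 most abundant genes of 42.9 to 44.5%, a median CV of 5.25 to 9.66% and a biological coefficient of variation of 11.8 to 16.2%; the lowest value of each of the last pair came without replicate 1. At 5 FPKM, 8 of 45 hepatocyte secreted protein genes remained in place of 16, because Alb, Ttr, Apoa1 and others lie between the cutoffs. The share in the top 100 was 29.2% by counts, which are not scaled for length. The median CV was 7.19% for genes at 10 FPKM or more and 15.8% with no filter. The biological coefficient of variation was 18.9% over all genes with a count, and 11.6% with an offset for each library's GC and length trend (14.2% over the same 11376 genes without it). Of the other 20 lists, 6 counts moved by over 1.5 times at 5 FPKM and 2 at 0.5 FPKM. Mean FPKM of the named genes moved by more than 1 SD in 536 of 679 on the TPM scale, which raises every gene. With RPKM from counts and exon length, 332 of the 667 named genes with such a length moved by more than 1 SD. FPKM and RPKM differed by a median ratio of 1.40, with 90.6% of genes within 2-fold of it. No paired analysis was possible because only 1 group is described. Levels that rest on few counts, such as Cps1 and Cyp3a11, are limited by depth.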
